A study of Mus musculus with 20 samples.

Results

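Genes of mitosis and DNA replication were followed through 10 kidney tumors of the Cre-less AAV mouse model and 10 normal kidneys. The 45 genes were taken by name from a gene count table of 54532 genes. Their levels were not part of the rule, but the list was chosen with earlier results of these data known. Of the 45, 16 act in DNA replication or switch on its genes and 29 act in mitosis. A filter on low counts kept 15354 genes, among them 44 of the 45. Ttk, a kinase of the spindle checkpoint, did not pass it.

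The mice were C57BL/6 animals of both sexes, adult when injected, with a Cas9 allele behind a Lox-Stop-Lox cassette (LSL-Cas9/+) and Cre under the Pax8 promoter (Pax8 Cre/+), so that Cas9 was made in Pax8-expressing cells throughout the kidney. An adeno-associated virus (AAV) carried sgRNAs against Vhl, Pbrm1, Keap1 and Tsc1. Tumors and normal kidneys came from the same 10 mice, so the normal kidneys carried the same alleles, and the labels do not say which tumor and kidney share a mouse. RNA was read in bulk, so more cycling cells and more RNA per cell cannot be told apart. The replicates are separate tissue samples.

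Before it divides, a cell licenses its replication origins by loading the Mcm2-7 helicase onto DNA with the help of Cdc6. In S phase Cdc45 and the GINS complex switch the helicase on, Pcna clamps the polymerases to DNA, and ribonucleotide reductase (Rrm1, Rrm2) and thymidylate synthase (Tyms) supply the nucleotides. Cdk1 with cyclin A or B then drives mitosis, in which Aurora and Polo kinases, kinetochore proteins and spindle motors separate the chromosomes. E2F factors switch on the replication genes, and the DREAM and MuvB complexes act on mitotic genes through a promoter element called CHR (cell cycle genes homology region), often near CCAAT boxes. In healthy adult kidney few tubule cells divide, and after injury many more of them enter the cycle.

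The promoters showed this division between the replication and the mitosis genes, and a promoter of each kind is printed because the 2 kinds hold different elements. RefSeq promoters on GRCm38.p6, which span 250 bases before to 50 bases after a transcription start, were found for 40 of the 45 genes (43 entries). Mcm4, Gins2, Ccna2, Aurkb and Tpx2 had no entry and were not searched. The promoters found were searched on both strands for 3 elements, and overlaps between matches were not removed. The CHR was spelled TTTGAA, and its variant TTCGAA was counted with it. The second element was the CCAAT box itself. An E2F site was spelled TTTCCCGC, TTTCGCGC, TTTGCCGC or TTTGGCGC. A CHR sequence lay in 22 of 27 mitosis entries (81.5%), against 19.2% of 32851 entries of all genes and 4 of 16 replication and E2F entries (25%). CHR and CCAAT stood together in 70.4% of mitosis entries, against 7.52% of all entries. An E2F sequence lay in 6 of the 16 replication and E2F entries (37.5%), in 1 mitosis entry (Cdk1) and in 2.26% of all entries. CCAAT did not separate the kinds, with 81.2% of replication and E2F entries, 77.8% of mitosis entries and 37.4% of all entries. Top2a had 4 CHR and 6 CCAAT matches, the most of any member for CHR. E2f1, Tyms, Birc5, Nuf2 and Nusap1 had none of the 3 elements in these windows. A match is a run of letters and not a measured binding site.

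The printed promoters belong to the members with the highest fold change among replication genes with an E2F sequence (Cdc6) and among mitosis genes with CHR and CCAAT (Hmmr, a spindle protein that binds hyaluronan). Each is the 250 bases before the start, 5′ to 3′ on the gene's strand, with the matches in capitals. The Cdc6 stretch is chr11:98907901-98908150 (plus strand), where the E2F match begins 138 bases before the start. The Hmmr stretch is chr11:40733438-40733687 (minus strand), with CCAAT matches, all on the opposite strand, that begin 172, 129, 96, 47 and 20 bases before the start. The CHR of Hmmr begins at base 9 after the start and is shown in a run of 30 bases, chr11:40733408-40733437.
Cdc6: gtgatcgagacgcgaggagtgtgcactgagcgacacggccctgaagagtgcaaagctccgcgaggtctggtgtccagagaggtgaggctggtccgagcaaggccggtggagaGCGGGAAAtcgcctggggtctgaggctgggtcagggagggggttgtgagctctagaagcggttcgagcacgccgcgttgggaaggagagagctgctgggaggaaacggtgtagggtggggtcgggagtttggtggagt
Hmmr: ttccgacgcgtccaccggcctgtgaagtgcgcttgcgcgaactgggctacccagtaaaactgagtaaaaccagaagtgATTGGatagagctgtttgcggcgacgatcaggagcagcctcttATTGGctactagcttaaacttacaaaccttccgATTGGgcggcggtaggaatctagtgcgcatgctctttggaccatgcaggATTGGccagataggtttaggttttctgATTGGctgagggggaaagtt
Hmmr CHR: gaggtaaaTTTGAAttcaggcgagctgaca

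The libraries held 14737516 to 26679704 counts, and the tissue matched its labels in part. Markers of other tubule segments summed to 4050 to 10100 CPM, counts scaled to a common library size, in normal kidneys and to 1.98 to 13.0 in tumors, and proximal tubule markers to 2280 to 14800 against 1260 to 9970. Of the targeted genes, Vhl (log2 fold change −0.49, adjusted p = 0.00179) and Tsc1 (−0.61, adjusted p = 0.00871) were lower in tumors by edgeR's quasi-likelihood test and Keap1 was higher (0.83, adjusted p = 1.3e-07), while Pbrm1 had −0.28 (adjusted p = 0.23). The ranges of the groups overlapped for Vhl (12.3 to 28.6 CPM in tumors, 21.6 to 28.8 in kidneys), Tsc1 (25.7 to 52.0 and 18.9 to 62.1) and Pbrm1 (36.2 to 74.9 and 20.0 to 93.0), and not for Keap1 (56.0 to 91.3 and 36.6 to 50.6). An edited gene can still be transcribed, so these levels check the labels only weakly.

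Normal kidney 7 stood apart from the other normal kidneys, and the counts and fold changes of members are therefore given with and without it. It was singled out by the levels of these same genes, so leaving it out favors higher calls for them. All p-values without normal kidney 7 are therefore descriptive only. The 45 genes summed to 982 CPM in normal kidney 7, against 216 to 306 CPM (median 252) in the other 9, a level 3.9 times their median. Tumors summed to 301 to 1040 CPM (median 594), and only tumor 7 (1040) exceeded normal kidney 7. Normal kidney 7 was the highest kidney for 44 of the 45 genes, all but Tyms, and lay above the median tumor for 42 of them and above every tumor for 15. The same library held the most Havcr1 (KIM-1, a marker of injured proximal tubule), 1350 CPM against 3.18 to 163 CPM in the other kidneys. Lcn2, a secreted injury marker, stood at 3300 CPM there. Normal kidneys 5 and 8 also had high Lcn2 (2540 and 1760 CPM) and the highest Sox9 (96.5 and 88.2 CPM), but their Mki67 was the lowest of all kidneys (3.27 and 2.05 CPM). Havcr1 was at 163 and 128 CPM in kidneys 5 and 8, far below normal kidney 7, and their Vcam1 was not raised (21.4 and 26.3 CPM). The low place of kidneys 5 and 8 for Mki67 did not hold for all members. They summed to 277 and 248 CPM over the 45 genes, inside the range of 216 to 306. The injured tubule list summed to 5090 CPM in normal kidney 7 and to 28.2 to 3060 in the others, and the fibroblast list to 787 against 179 to 354. Of the injury genes, Havcr1, Lcn2 and Krt20 were highest there, and Sox9 (68.5 CPM) and Vcam1 (34.5 CPM) were not. Of the fibroblast genes, Col1a1 (285 CPM), Col1a2 (362 CPM), Pdgfrb and Postn were highest there. Lum lay within the range of the others, and Dcn was the lowest (34.6 against 62.8 to 132 CPM). The leukocyte list of normal kidney 7, 82.6 CPM, lay within the range of the others (43.1 to 96.6), as did its macrophage list (188 against 102 to 385). Within the macrophage list, Cd68 was highest there, at 53.8 CPM against at most 14.9. The neutrophil list lay above the others (37.2 against 1.98 to 24.3). The T cell list (0.475 against 1.17 to 8.33) and the B and plasma cell list (5.44 against 10.2 to 154) lay below them. The part of these markers in the levels of the 45 genes was not tested.

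**Figure D1:**
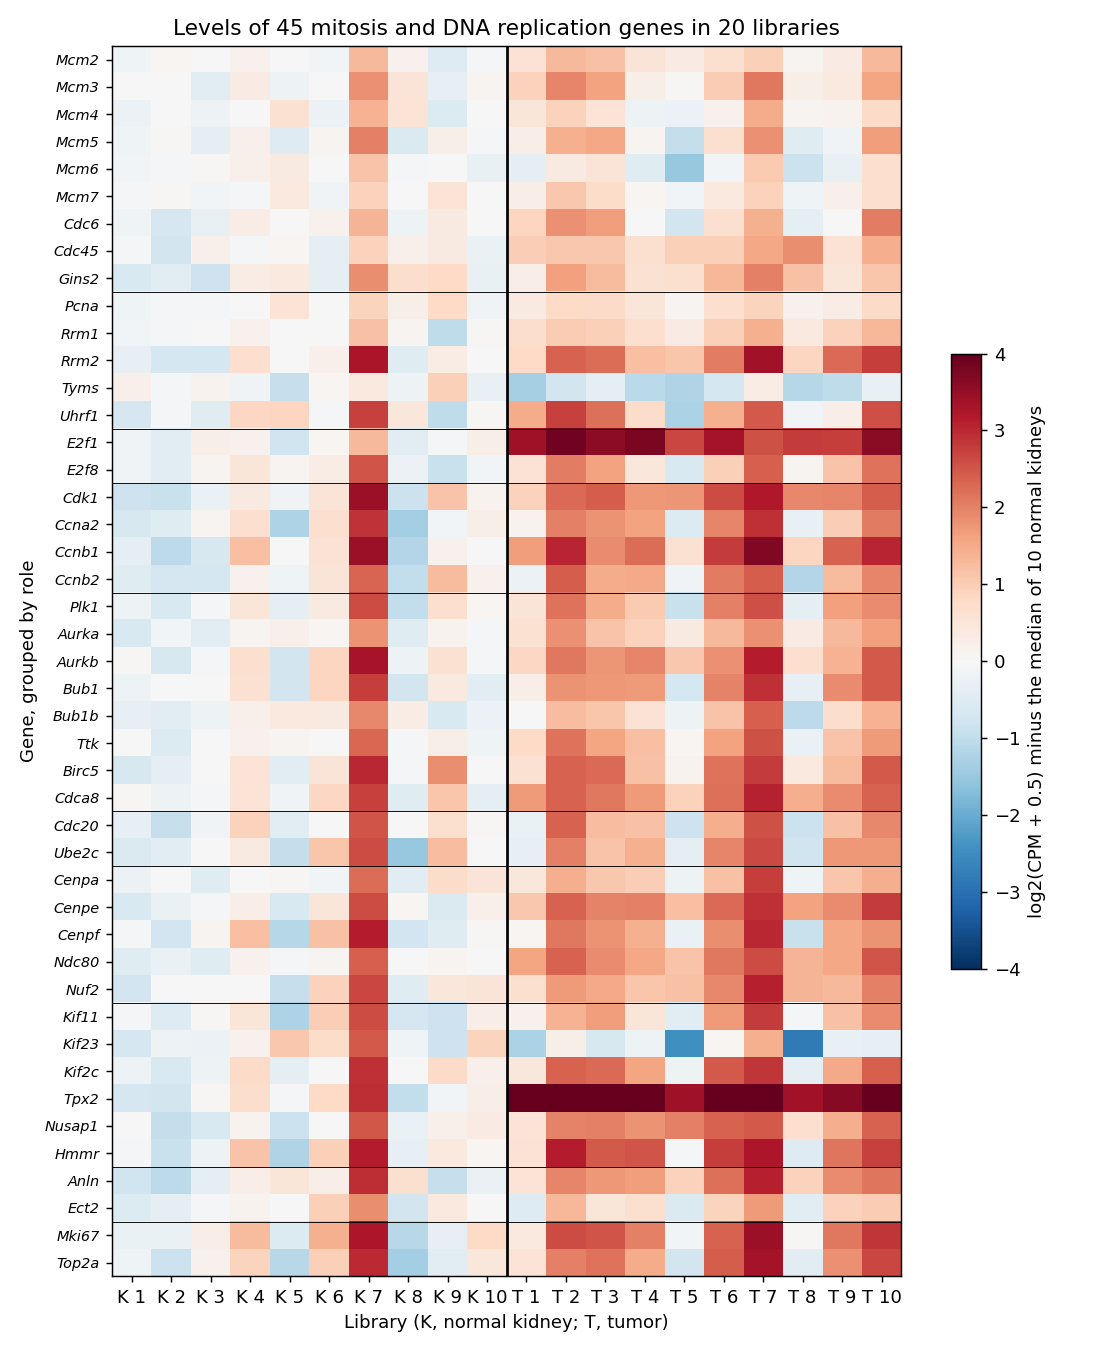
Each row is a gene and each column a library, colored by log2(CPM + 0.5) minus the median of the 10 normal kidneys, with colors capped at 4 in either direction and thin lines between roles. Normal kidney 7 stands out among kidneys, tumors 1, 5 and 8 are pale, and only Tpx2 and E2f1 are dark in every tumor.

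The tumors also differed among themselves, and the highest sum over the 45 genes was 3.47 times the lowest. Tumor 7 was the highest tumor for 38 of the 45 genes, and the lowest tumor was number 1, 5 or 8 for 43 of them (21 times tumor 5, 14 times tumor 8 and 8 times tumor 1). The difference from the median normal kidney, taken as the median over the 29 mitosis genes, was 3.19 on the log2 scale in tumor 7 and between 1.76 and 2.57 in tumors 2, 3, 4, 6, 9 and 10. It was 0.61 in tumor 1, −0.13 in tumor 5 and −0.21 in tumor 8. Over the 14 replication genes the same measure was 1.62 in tumor 7, −0.03 in tumor 5 and 0.11 in tumor 8. Tumors 5 and 8 each lay above the 9 other kidneys for 14 genes, tumor 1 for 18, and the remaining tumors for 30 to 44. Normal kidney 7 did so for 44. Tumor 7 also had the highest leukocyte list (355 CPM against 39.5 to 121 in the other tumors), neutrophil list (414 against 1.88 to 27.1), macrophage list (1280 against 243 to 659) and fibroblast list (3830 against 109 to 485), and their part in its levels was not tested.

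Across all 20 libraries, 14 of the 44 tested genes were higher in tumors and 1 was lower at an adjusted p under 0.05 (edgeR's quasi-likelihood test, adjusted over 15354 genes). Of all genes tested, 23.6% were higher and 23.8% lower by this rule. The median log2 fold change was 1.07 for the members and −0.021 for all genes, and 41 of 44 members had a positive value. Without normal kidney 7, 38 members were higher, the 14 among them, and 1 was lower, against 25.2% and 24.6% of 15511 genes tested, and the members' median was 1.71. That library was singled out by the members' own levels, so the count without it is not independent of the choice. Leaving out any other single library gave 10 to 17 higher members, so that of the single libraries only normal kidney 7 moved the count by over 1.5 times. With all 20 libraries kept, other fits and scalings gave 9 to 40 higher members, so the count also depended on the test. Over all genes, these fits called 2850 to 5337 of 15354 higher, or 4146 of 32383 with no filter. The 9 members, found with upper quartile factors or library totals, were a share near that of all genes (3000 and 2850 of 15354). A fit with same-numbered libraries as a replicate block called 17 members that the main fit did not, and called 3979 of 15354 genes higher. The sources do not tie a number to a mouse. By the limits the study used for bulk RNA, a log2 fold change over 1 and an unadjusted p under 0.001, 5 of 44 members were higher, against 8.85% of all genes. Without normal kidney 7, 23 members passed, and the share of all genes that pass these limits without it was not computed. Every tumor exceeded every kidney for 2 members (E2f1 and Tpx2), against 5.87% of genes. Every tumor exceeded the 9 other kidneys for 9 members, against 7.65%.

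**Figure D2:**
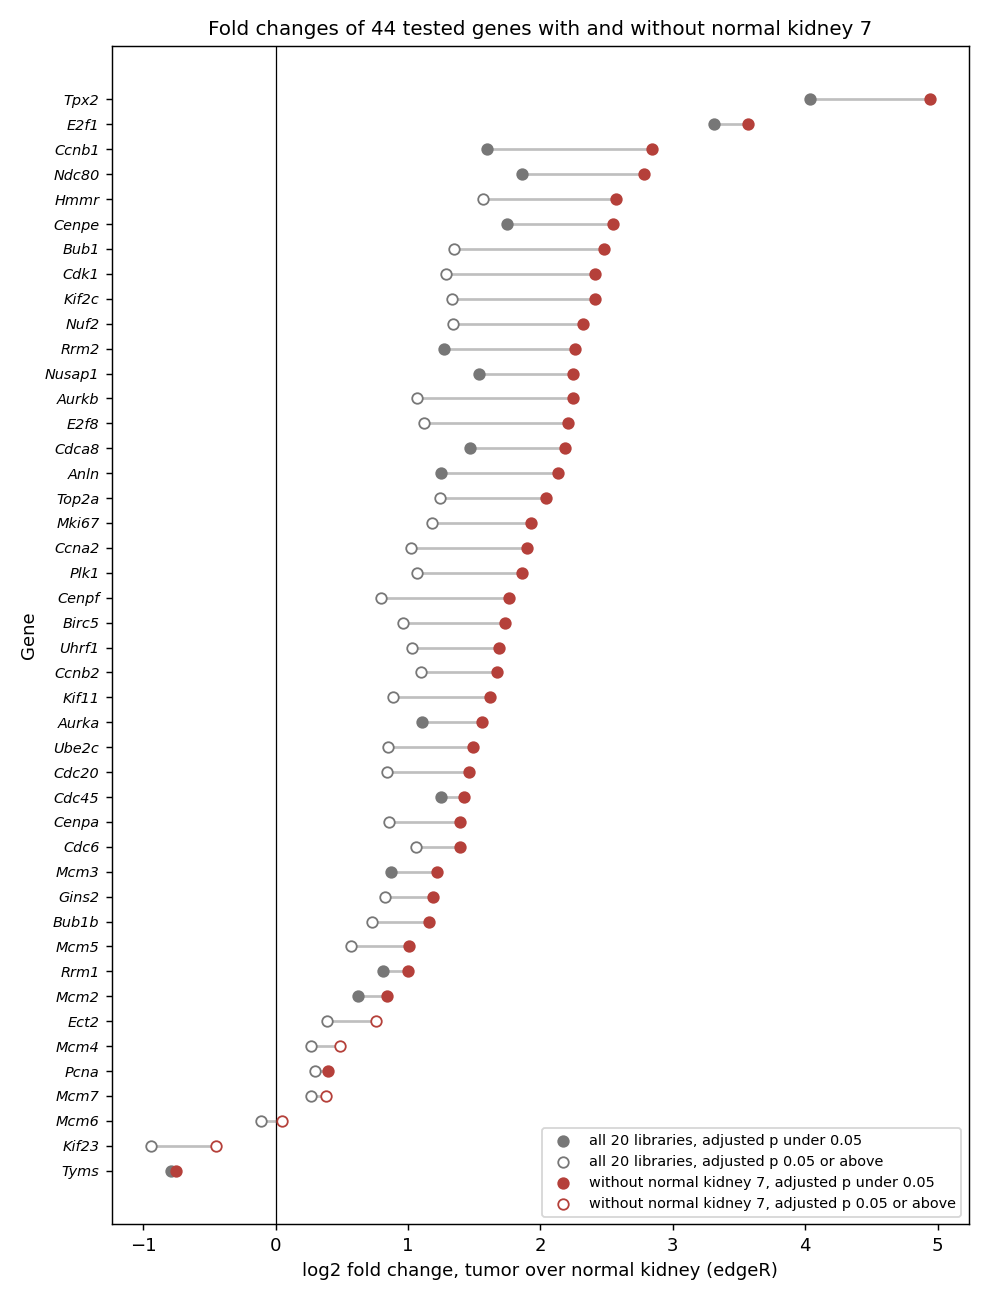
Points are log2 fold changes of tumors over normal kidneys for the 44 tested genes, with all 20 libraries in gray and without normal kidney 7 in red, filled where the adjusted p is under 0.05. Most genes move right by leaving out that library, Tyms stays at the low end in both, and Mcm6 lies near 0 in both.

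The chromosome markers show the pattern that most members share. Mki67, the Ki-67 protein that coats mitotic chromosomes and is stained to count cycling cells, ranged from 4.60 to 59.0 CPM (median 25.9) in tumors and from 2.05 to 51.3 CPM (median 5.15) in normal kidneys. Tumors 5, 8 and 1 (4.60, 5.20 and 6.72 CPM) lay within the range of the other 9 kidneys, which ended at 14.3 CPM, and the other 7 tumors lay above it. The log2 fold change was 1.18 ± 0.560 (SE, adjusted p = 0.0879 by edgeR), and 1.93 ± 0.474 without normal kidney 7 (adjusted p = 0.00209). With same-numbered libraries as a replicate block, edgeR gave 1.44 (adjusted p = 0.00125) on all 20 libraries. Mki67 was higher in the tumor for 10 of 10 numbers, but whether a shared number means a shared mouse is not stated. A two-sided permutation test of mean log2 CPM gave a difference of 1.44 (p = 0.0269), and 1.76 without that kidney (p = 0.00517). Top2a, the topoisomerase that untangles sister chromatids, ranged from 2.49 to 49.6 CPM (median 18.4) in tumors and from 1.46 to 39.1 (median 4.54) in kidneys. Its groups overlapped through the same libraries, with a log2 fold change of 1.24 (adjusted p = 0.0873), 2.04 without normal kidney 7 (adjusted p = 0.00193), and permutation p = 0.0319 and 0.00624. The replicate block gave 1.48 for Top2a (adjusted p = 9.61e-04 by edgeR), with the tumor higher for 10 of 10 numbers.

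**Figure D3:**
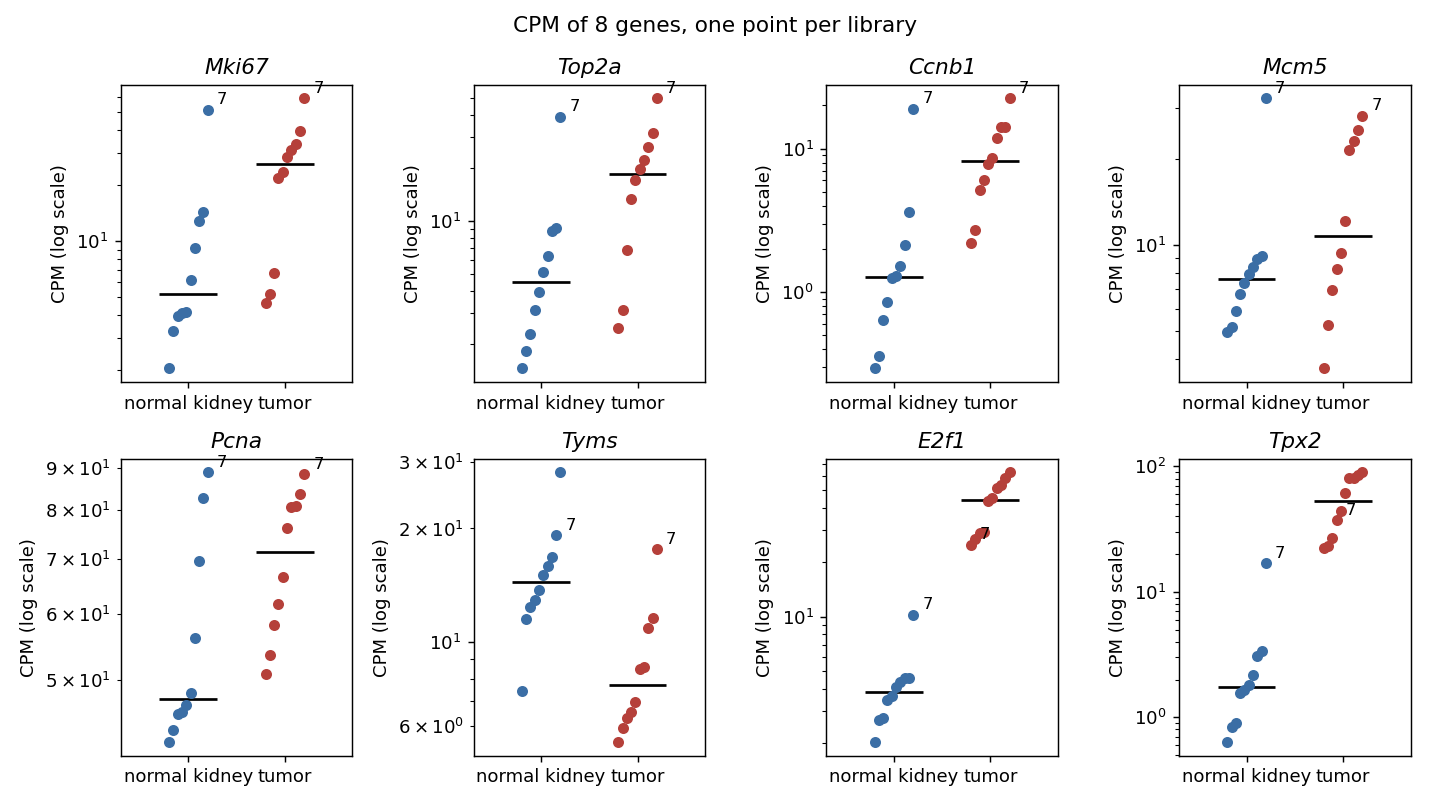
Each point is the CPM of a library on a log axis, bars are group medians, and the libraries numbered 7 are marked. Normal kidney 7 lies within the range of the tumors for Mki67, Top2a and Ccnb1, above all of them for Mcm5 and Pcna and below all of them for E2f1 and Tpx2, and most tumors lie low for Tyms.

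Counts by role, here and below, stand against 23.6% of all genes higher and 23.8% lower. Without normal kidney 7 these shares were 25.2% and 24.6%. Among the replication genes, those of the helicase moved unevenly. Of the 9 licensing and helicase genes, Mcm2, Mcm3 and Cdc45 were higher in tumors, and 6 were higher without normal kidney 7. Cdc45, which joins the helicase when it starts, had the highest fold change. It ranged from 3.02 to 8.02 CPM (median 4.24) in tumors and from 0.899 to 3.98 (median 1.85) in kidneys. All 10 tumors lay above the 9 other kidneys and 8 lay above normal kidney 7 as well, with a log2 fold change of 1.25 ± 0.240 (SE, adjusted p = 2.14e-04), and 1.42 without normal kidney 7 (adjusted p = 2.08e-05). Its highest value was in tumor 8, where most members were low. Mcm6, a helicase subunit, had the lowest fold change of the group, −0.11 (adjusted p = 0.748), and 0.05 without normal kidney 7 (adjusted p = 0.883). It ranged from 7.92 to 48.7 CPM (median 20.3) in tumors and from 18.8 to 52.2 (median 23.5) in kidneys. For Mcm6, 4 tumors lay below every kidney and 4 lay above the 9 other kidneys, with none above normal kidney 7.

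Mcm5, another subunit, ranged from 3.71 to 28.2 CPM (median 10.7) in tumors and from 4.98 to 32.4 (median 7.62) in kidneys. Its highest library was normal kidney 7. The log2 fold change was 0.57 (adjusted p = 0.25; permutation p = 0.22), and 1.01 without that kidney (adjusted p = 0.0161; permutation p = 0.0573). Mcm2 and Mcm3 had log2 fold changes of 0.62 and 0.87 (adjusted p = 0.0202 and 0.0352), and 0.84 and 1.22 without that kidney. Mcm4 and Mcm7 had 0.27 each and passed no threshold with or without normal kidney 7. The licensing factor Cdc6, whose promoter is printed above, had 1.06 (adjusted p = 0.0561), and Gins2, a GINS subunit, had 0.83 (adjusted p = 0.0536). Both passed without normal kidney 7, at 1.39 and 1.19.

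Of the 5 genes of DNA synthesis and nucleotide supply, Rrm1 and Rrm2 were higher and Tyms was lower, and without normal kidney 7, 4 were higher and Tyms was lower. Rrm2, the small subunit of ribonucleotide reductase, ranged from 11.9 to 72.7 CPM (median 31.5) in tumors and from 3.94 to 69.4 (median 6.70) in kidneys. Every tumor lay above the 9 other kidneys, which reached 10.9 CPM. Its log2 fold change was 1.27 ± 0.519 (SE, adjusted p = 0.0481), and 2.26 without normal kidney 7. Rrm1, the large subunit, had 0.81 (adjusted p = 0.00203), and 1.00 without normal kidney 7, and its 10 tumors also exceeded the 9 other kidneys.

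Tyms, which makes thymidylate for DNA, went the other way. It ranged from 5.43 to 17.6 CPM (median 7.71) in tumors and from 7.44 to 28.2 (median 14.4) in kidneys. The value of 28.2 was in normal kidney 9, and the next kidney had 19.2. Of the tumors, 5 lay below every kidney, and only tumors 7 and 10 exceeded 11.5 CPM, the level of the kidney next to the lowest. Its log2 fold change was −0.79 ± 0.230 (SE, adjusted p = 0.00739), and −0.75 without normal kidney 7 (adjusted p = 0.0128). It was the only member called lower. Pcna, the clamp, ranged from 50.8 to 88.4 CPM (median 71.3) in tumors and from 42.1 to 88.9 (median 47.5) in kidneys. These groups overlapped widely, with a log2 fold change of 0.30 (adjusted p = 0.117; permutation p = 0.0508), and 0.40 without normal kidney 7 (adjusted p = 0.0284; permutation p = 0.014). Uhrf1, which keeps DNA methylation through replication, had 1.03 (adjusted p = 0.122), and 1.69 without normal kidney 7 (adjusted p = 0.00491).

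E2f1 and Tpx2 differed from all other members, in that every tumor lay above every kidney, normal kidney 7 included. E2f1, an activating E2F factor (chr2:154559407-154569892 on mm10), ranged from 25.1 to 63.0 CPM (median 44.3) in tumors and from 2.03 to 10.3 (median 3.86) in kidneys. Its lowest tumor was tumor 7, the highest for most members, and the 3 tumors with the least Mki67 had 45.2 CPM or less. The log2 fold change was 3.31 ± 0.269 (SE, adjusted p = 2.42e-09), and 3.57 without normal kidney 7 (adjusted p = 9e-11). E2f8, a repressing E2F factor, ranged from 0.111 to 4.35 CPM in tumors and from 0 to 4.78 in kidneys, with 1.12 (adjusted p = 0.166), and 2.21 without normal kidney 7 (adjusted p = 0.00243).

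Tpx2, which brings Aurora kinase A to the spindle and activates it, had the highest fold change of the 45. It ranged from 22.4 to 89.9 CPM (median 53.0) in tumors and from 0.634 to 16.9 (median 1.73) in kidneys. Tumor 1, with 6.72 CPM of Mki67, held 81.3 CPM of Tpx2, while normal kidney 7, with 51.3 CPM of Mki67, held 16.9. The log2 fold change was 4.04 ± 0.553 (SE, adjusted p = 3.89e-06), and 4.94 without normal kidney 7. Its partner Aurka had 1.11 ± 0.339 (SE, adjusted p = 0.0099), and 1.56 without normal kidney 7. Per kilobase of gene length, mean Tpx2 in tumors stood at 11.8 CPM, against 2.52 for Mki67 and 29.2 for Pcna, and in kidneys at 0.705, against 1.11 and 23.7.

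Tpx2 (chr2:152847964-152895321) and E2f1 lie on the same chromosome, 1664086 bases apart. The gene next to Tpx2 on the same strand, Mylk2, a myosin light chain kinase of muscle that starts 16031 bases after Tpx2 ends, was at 21.8 to 95.5 CPM in tumors and at 0 to 0.345 CPM in kidneys. Its log2 fold change was 8.95 (adjusted p = 1.41e-11). Across the 10 tumors no relation of Mylk2 with Tpx2 was seen (r = −0.03, rho = 0.10, permutation p = 0.936 and 0.784). With 10 libraries this does not show that the genes vary apart. Between the start of Tpx2 and the end of E2f1, 25 genes were tested, of which 10 were higher and 4 lower, with a median log2 fold change of 0.26. These neighbors were looked at after the values of Tpx2 and E2f1 had been seen.

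Of the 4 mitotic cyclins and Cdk1, only Ccnb1 was higher with all libraries, and all 4 were higher without normal kidney 7. Cyclin B1 (Ccnb1) ranged from 2.21 to 22.4 CPM (median 8.22) in tumors and from 0.293 to 19.0 (median 1.27) in kidneys. Of the tumors, 8 lay above the 9 other kidneys. Its log2 fold change was 1.60 ± 0.648 (SE, adjusted p = 0.0464; permutation p = 0.00178), and 2.84 without normal kidney 7 (adjusted p = 6.41e-05; permutation p = 8.66e-05). Ccna2, the cyclin A of dividing cells, had the lowest fold change here, with 1.49 to 21.3 CPM (median 8.92) in tumors and 0.634 to 21.0 (median 2.41) in kidneys. The groups overlapped through tumors low in Mki67 and normal kidney 7, at 1.02 (adjusted p = 0.156), and 1.90 without that kidney (adjusted p = 0.00227). Cdk1 and Ccnb2 had 1.29 and 1.10 (adjusted p = 0.0601 and 0.0981), and 2.41 and 1.67 without normal kidney 7.

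Of the 8 mitotic kinases and checkpoint genes, Aurka and Cdca8 were higher, and all 7 that passed the filter were higher without normal kidney 7. Cdca8, borealin of the chromosomal passenger complex, ranged from 2.38 to 12.3 CPM (median 5.65) in tumors and from 0.586 to 9.60 (median 1.03) in kidneys. Tumors lay above the other kidneys in 9 of 10 cases, with a log2 fold change of 1.47 ± 0.458 (SE, adjusted p = 0.0118), and 2.19 without normal kidney 7 (adjusted p = 1.77e-05). Bub1b, a checkpoint protein, had the lowest, with 1.05 to 16.1 CPM (median 5.53) in tumors, 1.57 to 11.6 (median 2.70) in kidneys and 0.73 (adjusted p = 0.155), or 1.16 without normal kidney 7 (adjusted p = 0.0123). Plk1, Aurkb, Bub1 and Birc5 (survivin) had 0.96 to 1.35, none of which passed with all libraries, and 1.73 to 2.48 without that kidney. Ttk ranged from 0.111 to 3.84 CPM (median 1.45) in tumors and from 0 to 3.10 (median 0.238) in kidneys, where only normal kidney 7 exceeded 0.377.

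The APC/C ubiquitin ligase ends mitosis. Its activator Cdc20 and its E2 enzyme Ube2c had log2 fold changes of 0.84 and 0.85 (adjusted p = 0.187 and 0.233), and both were higher without normal kidney 7 (1.46 and 1.49). Cdc20 ranged from 1.27 to 18.3 CPM (median 6.96) in tumors and from 1.20 to 18.1 (median 2.74) in kidneys. Ube2c ranged from 0.941 to 15.1 CPM (median 7.04) in tumors and from 0.390 to a level just under that of the highest tumor (median 2.02) in kidneys. For both genes, the highest kidney was normal kidney 7.

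Of the 5 kinetochore genes, Ndc80 and Cenpe were higher, and all 5 were higher without normal kidney 7. Ndc80, which binds microtubules, ranged from 1.94 to 6.23 CPM (median 3.19) in tumors and from 0.283 to 5.26 (median 0.605) in kidneys. All tumors lay above the 9 other kidneys, which ended at 0.738 CPM, with a log2 fold change of 1.86 ± 0.469 (SE, adjusted p = 0.00263), and 2.78 without normal kidney 7. Cenpe, a kinetochore motor, did the same at 1.75 (adjusted p = 0.00329), and 2.55. Cenpf, a large kinetochore protein, had the lowest, with 0.498 to 14.6 CPM (median 5.38) in tumors, 0.347 to 16.0 (median 1.35) in kidneys and 0.80 (adjusted p = 0.32), or 1.76 without normal kidney 7 (adjusted p = 0.011). Nuf2, a partner of Ndc80, and Cenpa, the histone of centromeres, had 1.34 and 0.86 (adjusted p = 0.0669 and 0.111), and 2.32 and 1.39 without it.

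Of the 6 spindle genes, Tpx2 and Nusap1, which bundles spindle microtubules, were higher, and 5 were higher without normal kidney 7. Nusap1 had 1.54 ± 0.430 (SE, adjusted p = 0.00555), and 2.25 without normal kidney 7, with all tumors above the 9 other kidneys. Kif23, the motor of the central spindle, had the lowest fold change of all members, −0.94 ± 0.548 (SE, adjusted p = 0.165), and −0.45 without normal kidney 7 (adjusted p = 0.475). It ranged from 0.221 to 13.4 CPM (median 3.67) in tumors and from 2.39 to 27.6 (median 4.68) in kidneys. Tumors 1, 5 and 8 lay below every kidney (1.62, 0.443 and 0.221 CPM), the reverse of their place for Tpx2. The motors Kif11 and Kif2c had 0.89 and 1.33 (adjusted p = 0.184 and 0.0966), and Hmmr had 1.57 (adjusted p = 0.0591), each called without normal kidney 7, at 1.62, 2.41 and 2.57. In cytokinesis, Anln, a scaffold of the cleavage furrow, ranged from 5.09 to 32.6 CPM (median 12.9) in tumors and from 1.32 to 28.7 (median 3.37) in kidneys. Tumors lay above the other kidneys in 9 of 10 cases, at 1.25 ± 0.502 (SE, adjusted p = 0.045), and 2.13 without normal kidney 7. Ect2, which activates RhoA at the furrow, ranged from 2.05 to 12.0 CPM (median 5.96) in tumors and from 1.76 to 13.3 (median 3.30) in kidneys, with 0.39 (adjusted p = 0.419), and 0.76 without normal kidney 7 (adjusted p = 0.0641).

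Within each group, several members varied together with Mki67. In tumors, Mki67 correlated with Top2a (r = 0.98, rho = 0.95, permutation p = 1e-05 and 9e-05), Pcna (r = 0.90, rho = 0.93, p = 3e-04 and 3.4e-04) and Mcm5 (r = 0.86, rho = 0.94, p = 9.9e-04 and 1.8e-04), over 10 tumors. A p of 1e-05 is the smallest that 100000 resamples can give. Adjusted over 14 relations, these p-values were at most 0.00347. Because tumors 1, 5 and 8 lay apart, r was also taken over the other 7 tumors and was 0.94, 0.81 and 0.86, and without the 2 tumors farthest from the Mki67 median (5 and 8) it was 0.95, 0.76 and 0.69. In kidneys, Mki67 correlated with Top2a (r = 0.98, rho = 0.99) and with Mcm5 (r = 0.86, rho = 0.65, adjusted p = 0.00972 and 0.138), and r was 0.96 and 0.63 without normal kidney 7. With Pcna the kidney r was 0.23 (adjusted p = 0.616), and −0.45 without normal kidney 7.

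No relation of Mki67 with an immune or injury gene passed the adjustment. In tumors r was 0.61 for Ptprc (CD45, on all leukocytes; adjusted p = 0.143), 0.48 for Adgre1 (F4/80, on macrophages; 0.296), 0.11 for Cd3e (on T cells; 0.813) and 0.36 for Havcr1 (0.427). In kidneys these were 0.32, 0.04, −0.47 and 0.38, with adjusted p of 0.296 to 0.903. Without normal kidney 7, r in kidneys was 0.67 for Ptprc and −0.35 for Havcr1, so that the positive value for Havcr1 rested on that library. Cd3e was at 0 to 0.943 CPM in all 20 libraries. A p above the threshold with 10 libraries does not show that the genes vary apart.

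**Figure D4:**
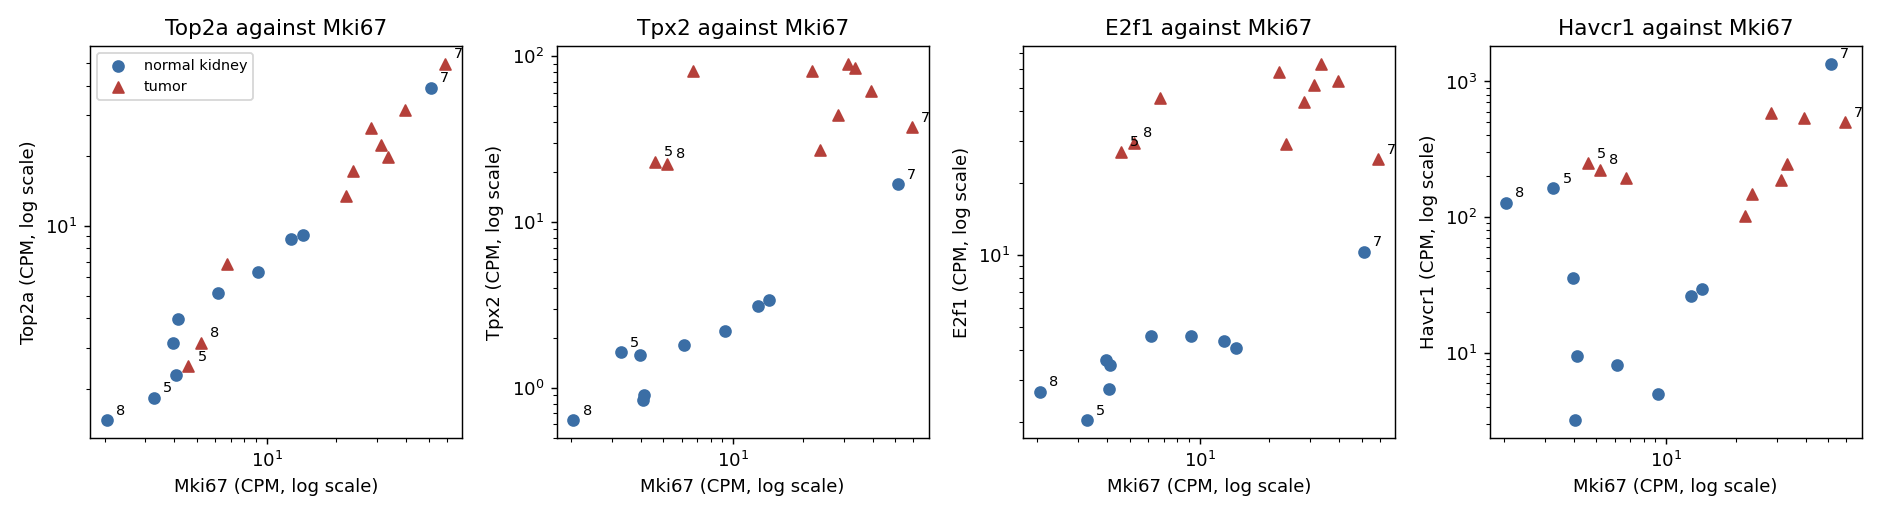
Each point is a library, with CPM of Mki67 on the x axis and of Top2a, Tpx2, E2f1 or Havcr1 on the y axis, both logarithmic, and libraries 5, 7 and 8 marked. Top2a follows a single line through both groups, and tumors lie above kidneys at any Mki67 level for Tpx2 and E2f1. Normal kidney 7 holds the most Havcr1 (1350 CPM) and the highest Mki67 of the kidneys. Kidneys 5 and 8, next in Havcr1 at 163 and 128 CPM, hold the lowest Mki67.

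Relations of the members that stood out were computed after their values had been seen, as 12 relations adjusted together. In kidneys, Mki67 went with Tpx2 (r = 0.96, rho = 0.89, adjusted permutation p = 6e-04 and 0.00762) and with E2f1 (r = 0.90, rho = 0.83, 0.00296 and 0.0192), and r was 0.89 and 0.75 without normal kidney 7. In tumors the same relations gave r = 0.42 and 0.32 (adjusted p = 0.326 and 0.475), and −0.12 and −0.38 over the 7 tumors other than 1, 5 and 8. The difference between tumors and kidneys in these correlations was not tested. Tpx2 and E2f1 went together across tumors (r = 0.89, rho = 0.76, adjusted p = 0.00543 and 0.0352), with r of 0.92 once the 2 tumors farthest from the median were left out and 0.89 over the 7. Tyms and Kif23, the members with the lowest fold changes, went with Mki67 across the 10 tumors (r = 0.82 and 0.92, rho = 0.93 and 0.75, adjusted p = 0.00894 and 0.00138 for r). Over the 7 tumors, Tyms gave r = 0.96 and rho = 0.89, and Kif23 r = 0.72 and rho = 0.29. In kidneys Tyms gave r = 0.24 (adjusted p = 0.582) and Kif23 0.74 (adjusted p = 0.0286), and Kif23 gave 0.39 without normal kidney 7.

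Tumors and kidneys with the same number had related levels of the cycle markers. For Mki67, r between tumor and same-numbered kidney over 10 numbers was 0.72 (rho = 0.66, permutation p = 0.0168 and 0.0432), and for Top2a 0.76 (rho = 0.77, p = 0.00973 and 0.0128). Adjusted over both genes, all 4 p-values stayed under 0.05. Without number 7, r was 0.66 and 0.71. The median r over the 44 members was 0.46, against 0.20 over all genes tested, and 0.15 against 0.12 without number 7. This relation was looked for after the values had been seen, and whether a shared number means a shared mouse is not stated.

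No member passed the test for a difference in spread between the groups. The SD of log2 CPM had a median over members of 0.88 in tumors and 1.11 in kidneys, against 0.38 and 0.49 over all genes. By limma on absolute deviations from the group mean, 0 members were called more variable in either group, and the lowest adjusted p was 0.346, for Cdc6. On simulated data this test called 37% of the genes given a 3-fold larger spread in tumors, so 0 calls do not show equal spread. At an unadjusted p under 0.05 there were 2 members, Cdc6 and Mcm6, both with the larger SD in tumors (1.24 against 0.71 and 0.79 against 0.40). Over all genes, 36 were called (0.234%) and 1826 had an unadjusted p under 0.05 (11.9%). Kidneys had the larger SD for 27 of 44 members, and for 63.9% of all genes. Without normal kidney 7 the median SD of kidneys was 0.70, and tumors had the larger SD for 37 of 44 members.

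Other genes of the same processes were taken from lists written with earlier results of these data known. Their calls with all libraries stand against 23.6% of all genes tested that were higher and 23.8% that were lower. Without normal kidney 7 these shares were 25.2% and 24.6%. Of 65 other mitosis genes, 64 were tested, 24 were higher and 1 was lower, with a median log2 fold change of 0.99, and 53 were higher without normal kidney 7. The highest were Sgo2a, a protector of centromeric cohesion (2.15), Oip5, a centromere factor (2.11), and Ncapg of condensin (1.88), with adjusted p of 9.29e-04 to 0.00217. The lowest that passed were Pttg1, securin (−0.59), Smc4 of condensin (0.48) and Dsn1 of the kinetochore (0.64). Of 50 other replication genes, 49 were tested, 13 were higher, near the share of all genes, and 4 were lower, with a median of 0.23. Without normal kidney 7, 18 were higher and 4 lower, with a median of 0.37. The highest were Chaf1b and Chaf1a of chromatin assembly factor 1 (1.48 and 1.36) and Cdc7, the kinase that fires origins (1.22). Among the lower ones were Dctpp1, a nucleotide phosphatase (−0.98), and Pold2, a subunit of polymerase delta (−0.60).

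The counts in this paragraph stand against the same shares, 23.6% higher and 23.8% lower, or 25.2% and 24.6% without normal kidney 7. Of 18 regulators in the E2F, RB and DREAM families, 3 were higher and 3 lower, with a median of 0.10. Without normal kidney 7, 6 were higher and 3 lower. The counts of these regulators lay near the shares of all genes. The higher ones were E2F factors, E2f3 (1.19), E2f2 (1.11) and E2f4 (0.65), with adjusted p of 1.18e-04 to 0.00162. The lower ones were Tfdp2, a partner of E2F factors (−0.81, adjusted p = 3.7e-05), and Lin52 and Rbbp4 of MuvB (−0.37 and −0.31). Foxm1, which drives mitotic genes, had 0.94 (adjusted p = 0.103), and 1.82 without normal kidney 7 (adjusted p = 2.41e-05). Mybl2, a MuvB partner, had −0.02 (adjusted p = 0.977), and 0.84 without that kidney (adjusted p = 0.0725). Of 15 checkpoint and brake genes, 14 were tested, 6 were higher and 1 lower, and 7 were higher and 1 lower without normal kidney 7. Chek2, a kinase of the DNA damage checkpoint, ranged from 9.02 to 19.0 CPM in tumors and from 2.23 to 6.83 in kidneys. Every tumor exceeded every kidney, at 1.57 (adjusted p = 2.31e-06). Chek1 (1.01), the phosphatase Cdc25b (0.90), Trp53 (0.58), Atr (0.57) and Fzr1, which keeps the APC/C active in G1 (0.45), were also higher. Gas1, a growth arrest gene, was lower at −1.24 (adjusted p = 0.00228).

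Calls in marker lists of other cells stand against 23.6% of all genes tested that were higher and 23.8% that were lower. The neutrophil, endothelial and fibroblast counts given here lay near or below the share of higher genes. Macrophage genes were higher for 4 of 6 (243 to 1280 CPM in tumors, 102 to 385 in kidneys), pan-leukocyte genes for 2 of 5 (39.5 to 355 against 43.1 to 96.6), and neutrophil genes for 1 of 4 tested (1.88 to 414 against 1.98 to 37.2). T cell genes summed to at most 2.63 CPM in tumors and 8.33 in kidneys. Endothelial and fibroblast genes were higher for 1 of 5 and 1 of 6, B and plasma cell genes were lower for both that were tested, and erythroid genes for 0 of 6 in either direction. No list had a gene at 0 in all libraries. The part of these cells in the members' levels was not tested. Of the 45 members, 7 overlap another tested gene (Mcm7, Cdc45, Gins2, Ccna2, Cdca8, Cdc20 and Nusap1), and because use of strand in counting is not stated, their counts can include reads of the partner.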

How the data were processed

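Tumor and normal kidney tissue was flash frozen and pulverized, RNA was extracted with Trizol, and a sequencing company made poly(A) libraries. The authors deposited raw read counts per gene on mm10 (per the labels), without normalization. The aligner, counter and use of strand are not given in the sources used here. The table has 54532 genes and 0 unused sample columns. Groups and replicate numbers came from the labels.

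Counts were scaled by TMM factors and tested with the quasi-likelihood test of edgeR 4.0.16 (R 4.3.3) on all 20 libraries, with a count minimum of 10, no covariate and Benjamini-Hochberg adjustment over 15354 genes. CPM and log2 CPM (prior count of 2) were computed from the counts. Spread was compared by limma 3.58.1, and DESeq2 1.42.0 served as an alternative. Total counts of 14737516 to 26679704 per library set the precision. No pair of libraries of a group agreed within sampling noise. The scripts were tested on simulated data. Permutation tests used 100000 resamples.

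All 45 members are named. Full ranges are given for Mki67, Top2a, Ccnb1, Mcm5, Pcna and for the members with the highest and lowest fold change of each role, and for companion lists the 3 highest and 3 lowest called genes are named, except for 1 that is not reported here. Other genes were named after their values were seen. Members and lists were chosen with earlier results of these data known. Promoters came from RefSeq (GRCm38.p6, the same assembly as mm10).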

Additional observations from a re-analysis of the deposited data

Results flagged for a closer look

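In normal kidneys, 1 library lay farther from the others than Dixon's 95% limit for 10 samples allows, and it was normal kidney 7 in all 22 cases out of 92 groups of values tested. Chance flags about 1 in 20 groups. The sum over the 45 genes was 982 CPM in this library. Its log2 CPM was 5.29 for Mcm2, 4.64 for Mcm3, 5.02 for Mcm5, 5.71 for Mcm6, 6.12 for Rrm2, 4.96 for Uhrf1 and 3.38 for E2f1. Among mitosis genes it was 4.79 for Cdk1, 4.40 for Ccna2, 3.38 for Plk1, 3.00 for Aurka, 3.56 for Aurkb, 3.55 for Bub1b and 1.68 for Ttk. It was 3.50 for Cenpa, 3.52 for Cenpe, 2.42 for Ndc80, 2.88 for Kif2c, 4.09 for Tpx2, 4.22 for Nusap1 and 4.85 for Anln. In tumors no library passed that limit for any member. The groups are not independent tests, since the members vary together across libraries.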

How the results depend on the processing

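The count of members higher in tumors depended on the setting more than their direction did. Against 14 with all libraries, it was 9 with upper quartile factors, 9 with library totals, 40 with limma-voom and quality weights, 37 without both libraries numbered 7 (an alternative chosen after seeing the data), and 5 by a log2 fold change over 1 with an unadjusted p under 0.001, where 0 were lower. With DESeq2 size factors, no filter, DESeq2 and limma-voom it was 13, 11, 19 and 21. Of all 15354 genes, 3000 were higher with upper quartile factors, 2850 with library totals and 5337 with quality weights. DESeq2 size factors, DESeq2 and limma-voom gave 3503, 3668 and 3696 of them. No filter gave 4146 of 32383, and leaving out both libraries numbered 7 gave 3867 of 15312. Leaving out each replicate in turn gave 10 to 38 higher and 1 to 2 lower (2 without tumor 7). The value 38 was without normal kidney 7, a library singled out by the members' own levels, and the other 19 gave 10 to 17. Over all genes, 3915 of 15511 were higher without normal kidney 7, and 3420 to 4052 in the other 19 fits. Over these settings Mcm6 ranged from −0.29 to 0.05, and its sign changed without normal kidney 7 (adjusted p = 0.883). Library totals moved the median of all genes to −0.141 and the share of higher among called genes from 49.8% to 38.5%, and upper quartile factors to −0.137 and 39.2%. E2f1 (3.18 to 3.62), Tpx2 (3.92 to 5.06) and Tyms (−0.97 to −0.66) kept their calls in every setting. With same-numbered libraries as a replicate block, 31 members were higher, against 3979 of 15354 genes. Mki67 (1.44, adjusted p = 0.00125) and Top2a (1.48, adjusted p = 9.61e-04) were among the 31 by edgeR. The tumor was higher in 10 of 10 numbers for both. Tumors and kidneys came from the same mice, but the sources do not tie a number to a mouse. In their deviations 9 of 10 same-numbered pairs correlated over 0.1, and number 9 did not (−0.14), so the numbers were not taken as pairs. Number 9 holds normal kidney 9, the library with the lowest TMM factor (0.749), and the part of that library in this value was not tested. That 8 of 10 tumors correlated best with their own number is a hint of pairing from the data. No member was called for spread in any setting. Without the 2 libraries farthest from the Mki67 median, r changed sign for Cd3e in tumors (−0.35) and for Pcna and Havcr1 in kidneys (−0.43 and −0.49). The causes of these changes were not tested. Genes under a few CPM, such as Ttk, E2f8 and Bub1, rest on few counts in kidneys.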
